A study of Mus musculus with 6 samples.

Results

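The genes described here carry pyruvate into the mitochondrion and around the citric acid cycle in MC38 cells, a mouse colorectal cancer cell line. They are the 32 rows, of 22386 genes in the deposited table, whose gene name is on a chosen list. The list holds pyruvate carriers, pyruvate carboxylase and the pyruvate dehydrogenase complex with its kinases and phosphatases. Enzymes of the cycle and the cytosolic Idh1 and Mdh1 complete it. Each row was chosen by its gene name alone, but the pathway itself was picked from results of this same comparison, so the fold changes and p-values below describe these genes and are not evidence that the pathway was affected more than others. Bulk RNA-seq counts were available for 3 control libraries, whose cells carry a control hairpin (shControl, genotype given as WT), and 3 knockdown libraries, whose cells carry a hairpin targeting Acsl4, a fatty acid-CoA ligase (shACSL4, genotype given as an Acsl4 knockdown). The series' design text calls these cells knockouts, whereas the titles and genotype labels give a hairpin and a knockdown, which are followed here. Both groups were grown in the same serum-containing medium and carry a hairpin, no other treatment is labelled, and the labels do not say whether cells came from 1 clone or whether replicates were separate cultures. The p-values therefore measure only the spread between these libraries, which may be technical.

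Pyruvate made by glycolysis enters mitochondria through a carrier and is then either oxidised to acetyl-CoA by the pyruvate dehydrogenase complex or carboxylated to oxaloacetate by pyruvate carboxylase. Kinases that phosphorylate the complex switch it off, and phosphatases switch it on again. The cycle oxidises acetyl-CoA, feeds electrons to the respiratory chain, and supplies citrate and other intermediates for the synthesis of lipids and amino acids, a use that is prominent in proliferating tumour cells.

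Library totals ran from 40911698 to 47127672 counts. A count of 0 would have allowed at most 0.0733 counts-per-million (CPM). Levels below are CPM after TMM scaling unless FPKM is named. Acsl4, the target of the hairpin, was at 191, 194 and 204 CPM across shControl 1 to 3, against 132, 128 and 127 CPM across shACSL4 1 to 3, 0.656 times its control level (log2 fold change -0.61 with SE 0.0517, edgeR adjusted p = 3.84e-06). Mitochondrially encoded transcripts took 3.79% to 5.85% of counts in shControl and 4.93% to 6.31% in shACSL4. Ribosomal protein genes took 4.32%, 4.34% and 3.39% across shControl 1 to 3, against 3.31%, 3.3% and 3.01% across shACSL4 1 to 3, without overlap and with shControl 3 well below the other controls. The third control stood apart from the others: among the shControl libraries it held the lowest value for 23 of the 31 members tested, and for 38.9% of all 14289 genes tested. Markers of colorectal epithelium were close to absent in both groups (summed level of 7 genes 1.71 to 2.16 CPM in shControl and 2.59 to 3.74 CPM in shACSL4, with Krt18, Krt19 and Cdh1 at 0 in some libraries and below 0.1 CPM on average, while Epcam and Cdx2 were not analysed here). Among them Krt20 was higher in shACSL4 without overlap, at 0.94 ± 0.136 and 1.69 ± 0.402 CPM (log2 fold change 0.84, edgeR adjusted p = 0.0361). Cdh17, too low to test, was also higher without overlap, at 0.121 ± 0.0252 and 0.419 ± 0.315 CPM. The other epithelial markers measured overlapped between groups. Of all tested genes, 22.0% were higher in shACSL4 without overlap. The 4 leucocyte markers measured (Adgre1 and Itgam were not analysed here) summed to at most 0.373 CPM, the 3 endothelial markers to at most 1.07 CPM and the 5 muscle and adipose markers to at most 1.74 CPM in any library. Of 5 fibroblast markers, Col3a1, Dcn and Pdgfra were high and Col1a1 and Col1a2 were below 0.5 CPM on average, and their summed level was 1621 to 1702 CPM in shControl and 1827 to 2139 CPM in shACSL4. Col3a1 and Pdgfra were higher and Dcn lower in shACSL4. The part of these library and marker differences in the results below was not tested.

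Pyruvate carboxylase, a dehydrogenase kinase and a majority of the cycle's enzyme genes rose in shACSL4, most of them by modest amounts. Of the 31 members with enough counts to test, 17 were higher and 1, Idh2, was lower at adjusted p under 0.05, beside 15.4% of all tested genes higher and 13.6% lower. The median log2 fold change of the 31 was 0.21, and that of all tested genes was -0.005. Every shACSL4 library lay above every shControl library for 19 members, as it did for 22.0% of all tested genes. The remaining member, Pdk4, had 2 to 10 counts per library and was too low to test. In bulk RNA, a change in the share of cells that carry a transcript and a change in its amount per cell cannot be told apart. The summed level of all 32 members was 4790, 4891 and 4603 CPM across shControl 1 to 3, against 5773, 5709 and 5522 CPM across shACSL4 1 to 3. The rise was uneven: Pdk2 and Pcx moved by more than 1 on the log2 scale, Ogdh, Mdh1 and Sdha by 0.45 to 0.65, and the other 12 risen members by 0.16 to 0.36. In the authors' deposited table, 18 of the 32 members had an adjusted p under 0.05, as had 17.9% of all 22386 genes in that table, and Pdk2 and Pcx were the 2 members marked as up. Of those 22386 genes 14289 passed the filter used here, as did 31 of the 32 members. The 17.9% thus includes many genes too low to test here and is not a like background.

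**Figure D1:**
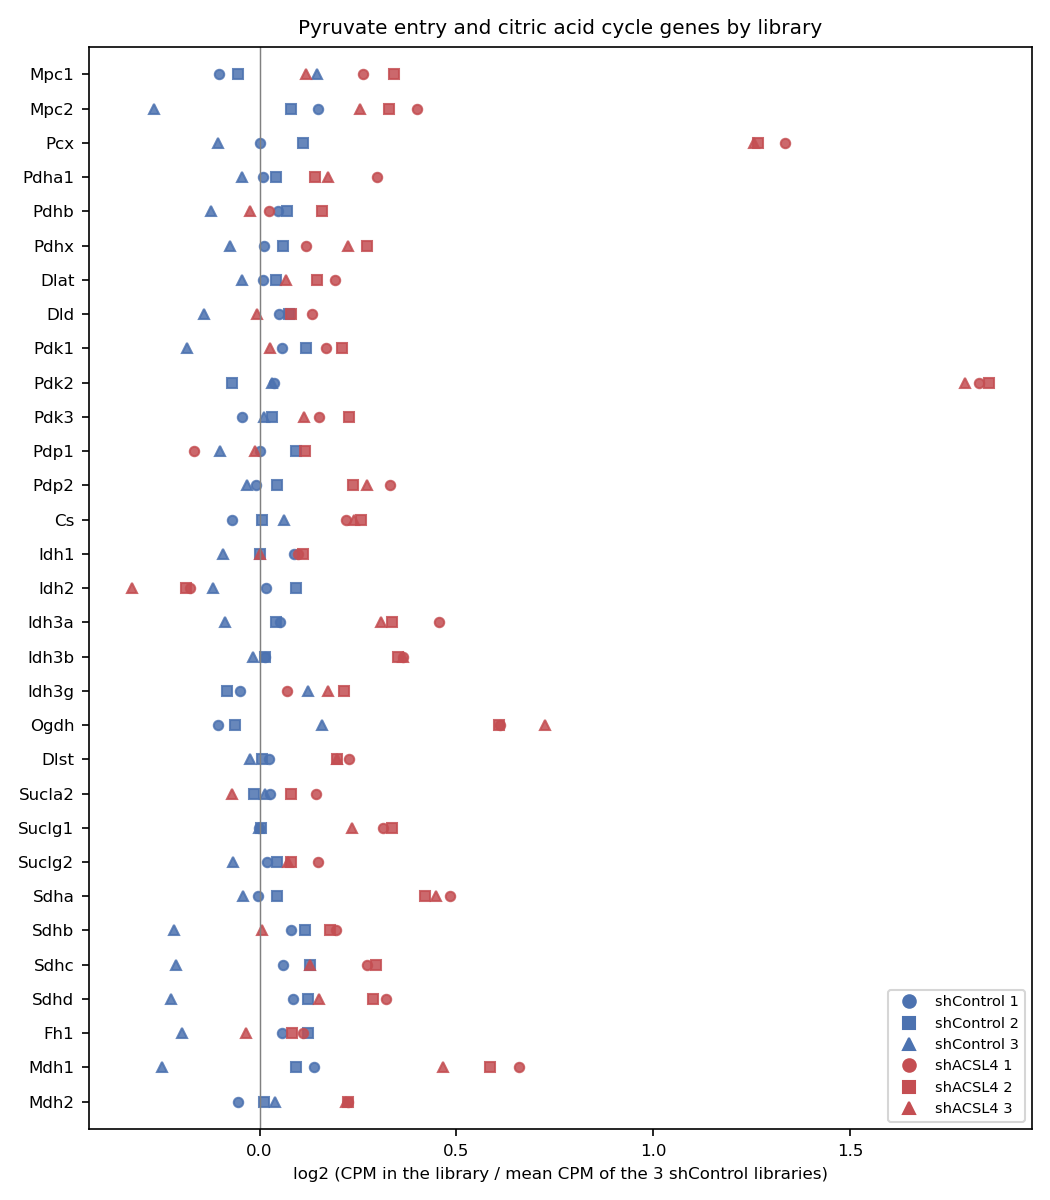
Level of each of the 31 tested members in each library, as log2 of its CPM over the mean of the 3 shControl libraries (blue, shControl; red, shACSL4; circle, square and triangle, replicates 1 to 3). Pdk2 and Pcx stand far to the right, Idh2 is the member whose 3 shACSL4 points all lie to the left of the controls, and the blue triangle of shControl 3 is the leftmost control point in 23 of 31 rows.

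The promoter sequences of the 3 members with the largest rises and of the only member that fell are shown because they are the ends of the range that this group of genes spans. They come from RefSeq on GRCm38.p6, a build other than the one the counts use, and run from 250 bases before to 50 bases after an annotated start, on the gene's own strand. Capitals mark the letters CACGTG, the E-box bound by MYC-family and other helix-loop-helix factors, and in Ogdh also TGACCTT, the reverse complement of AAGGTCA, the core of the element bound by oestrogen-related receptors.
Pdk2 (chr11:95041322-95041621, - strand): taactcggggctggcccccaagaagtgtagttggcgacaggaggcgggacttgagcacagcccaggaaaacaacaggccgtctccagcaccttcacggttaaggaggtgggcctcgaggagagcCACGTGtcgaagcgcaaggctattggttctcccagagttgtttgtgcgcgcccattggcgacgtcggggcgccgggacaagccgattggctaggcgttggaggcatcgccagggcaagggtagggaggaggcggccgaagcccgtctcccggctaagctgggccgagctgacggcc
Pcx (chr19:4510222-4510521, + strand): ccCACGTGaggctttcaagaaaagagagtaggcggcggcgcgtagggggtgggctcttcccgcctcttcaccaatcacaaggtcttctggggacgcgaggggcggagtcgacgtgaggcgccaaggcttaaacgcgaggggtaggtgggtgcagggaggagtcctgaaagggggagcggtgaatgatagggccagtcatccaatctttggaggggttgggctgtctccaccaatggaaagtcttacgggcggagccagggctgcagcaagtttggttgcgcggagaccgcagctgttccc
Ogdh (chr11:6291920-6292219, + strand): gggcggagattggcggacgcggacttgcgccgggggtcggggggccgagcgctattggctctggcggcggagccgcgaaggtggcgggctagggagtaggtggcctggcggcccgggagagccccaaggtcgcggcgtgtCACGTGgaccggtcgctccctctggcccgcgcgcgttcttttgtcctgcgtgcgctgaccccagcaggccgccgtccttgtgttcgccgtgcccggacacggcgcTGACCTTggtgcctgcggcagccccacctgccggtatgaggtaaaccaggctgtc
Idh2 (chr7:80115301-80115600, - strand): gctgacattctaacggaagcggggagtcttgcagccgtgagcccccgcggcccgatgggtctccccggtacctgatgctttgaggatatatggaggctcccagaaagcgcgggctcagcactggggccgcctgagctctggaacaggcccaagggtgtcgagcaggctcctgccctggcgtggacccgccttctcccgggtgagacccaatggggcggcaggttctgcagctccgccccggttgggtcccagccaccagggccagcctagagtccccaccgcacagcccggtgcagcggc
The E-box began 126 bases before the start in Pdk2 and 248 bases before it in Pcx, and a further listed start of each gene had none of the motifs searched. Ogdh has 6 listed starts, 3 of them with an E-box. The windows from 6292308 and from 6292329 overlap and hold the same E-box, 141 and 162 bases before their starts. The window shown was taken because it held both an E-box, 110 bases before the start, and the receptor core, 5 bases before it. The most upstream Ogdh start held none of the motifs searched, and the receptor core was in the window shown alone. The Idh2 window held no match. Over the 29 members found in the promoter table, CACGTG was present in 4 (Ogdh, Pcx, Pdk2 and Pdp2, 13.8%), against 8.09% of all 27025 genes in it. AAGGTCA, on either strand, was present in Ogdh and Sdhd (6.9%, against 5.38% of genes), the ETS-factor motif CCGGAAG in 6 members (20.7%, against 9.93%) and GCGCATGC, from the core of the site of NRF1, in Ogdh and Sdhb (6.9%, against 3.05%). Each motif was searched on both strands, and a gene was counted if any of its listed starts held a match. The 29 members had 39 listed starts and all 27025 genes had 32851, so genes with more starts had more chances of a match. Member promoters were richer in G and C (median 61.7%) than all promoters (52.7%), and the part of this in the counts of motifs was not tested. A match is a run of letters and does not show that a factor was bound.

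At the entry of pyruvate, pyruvate carboxylase, which makes oxaloacetate from pyruvate, more than doubled, and the carrier subunit Mpc2 rose modestly. Pcx (ENSMUSG00000024892, GRCm39 chromosome 19, 4560500 to 4671780) was at 11.3, 12.2 and 10.5 CPM across shControl 1 to 3, against 28.5, 27.2 and 27 CPM across shACSL4 1 to 3. The lowest shACSL4 library was thus above the highest control by more than the whole control level, and the fold was 2.44 (log2 fold change 1.28 with SE 0.0871, edgeR adjusted p = 5.83e-07). Mpc1 and Mpc2 form the mitochondrial pyruvate carrier together. Mpc2 was at 30.8, 29.4 and 23.1 CPM across shControl 1 to 3, against 36.7, 34.9 and 33.2 CPM across shACSL4 1 to 3, with the lowest value in shControl 3 and no overlap. It rose modestly (log2 fold change 0.33 with SE 0.099, edgeR adjusted p = 0.0248), and the call ended without shACSL4 1 (adjusted p = 0.098) or shACSL4 2 (0.0727). Mpc1 was low in both groups, at 7.68 ± 0.72 and 9.1 ± 0.713 CPM (mean ± SD, n = 3, shControl first here and below), and missed the threshold (log2 fold change 0.24, 95% interval -0.02 to 0.50, edgeR adjusted p = 0.151). On the FPKM scale Pcx was 5.09% ± 0.218 of the sum of Pcx and Pdha1, the catalytic subunit of the competing route, in shControl and 10.2% ± 0.298 in shACSL4 (SD, n = 3), with no overlap between groups.

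Among the subunit genes of the pyruvate dehydrogenase complex, differences were small. Pdha1 and Pdhx rose, and Pdhb, Dlat and Dld missed the threshold. Pdha1, the X-linked alpha subunit that carries the sites phosphorylated by the kinases, was at 166, 170 and 160 CPM across shControl 1 to 3, against 203, 182 and 186 CPM across shACSL4 1 to 3 (log2 fold change 0.20 with SE 0.057, edgeR adjusted p = 0.018). Its groups did not overlap, with shACSL4 1 the highest, and the call ended without that library (adjusted p = 0.105) or without shControl 1 (0.0566). Pdhx, which anchors dihydrolipoamide dehydrogenase to the core, was at 40.1, 41.5 and 37.8 CPM across shControl 1 to 3, against 43.2, 48.1 and 46.5 CPM across shACSL4 1 to 3 (log2 fold change 0.21 with SE 0.068, edgeR adjusted p = 0.0379). The call of Pdhx ended in 5 of the 6 fits that left out 1 library, with adjusted p up to 0.14. Dlat, the acetyltransferase core, was at 168 ± 5.2 and 185 ± 8.07 CPM (log2 fold change 0.13, 95% interval 0.02 to 0.25, edgeR adjusted p = 0.0826). Its groups did not overlap although the test was not passed. Pdhb, the partner of Pdha1, was at 121 ± 8.92 and 126 ± 7.95 CPM (log2 fold change 0.06, 95% interval -0.09 to 0.20, edgeR adjusted p = 0.562). Dld, a subunit shared with the 2-oxoglutarate and branched-chain complexes, was at 225 ± 18.2 and 237 ± 11.8 CPM (log2 fold change 0.07, 95% interval -0.07 to 0.22, edgeR adjusted p = 0.43). The summed level of the 5 subunits was 719 ± 38.6 CPM in shControl and 783 ± 28.6 CPM in shACSL4.

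Among the kinases and phosphatases of the complex, and among all members, Pdk2 had the largest fold change. Pdk2 (ENSMUSG00000038967, GRCm39 chromosome 11, 94917084 to 94932180) was at 4.77, 4.43 and 4.75 CPM across shControl 1 to 3, against 16.5, 16.8 and 16.1 CPM across shACSL4 1 to 3. All 3 shACSL4 libraries lay far above every control, and the fold was 3.54 (log2 fold change 1.82 with SE 0.104, edgeR adjusted p = 1.38e-07). The rise started from a low level. On the FPKM scale, which is per length, Pdk2 was at 1.46 ± 0.0611 in shControl and 5.23 ± 0.11 in shACSL4, whereas Pdk3 was at 52.6 ± 1.07 and 59.2 ± 2.24 and Pdk1 at 28.9 ± 3.43 and 31.9 ± 2.08. The share of Pdk2 in the summed FPKM of the 4 kinases was therefore 1.77% ± 0.134 in shControl and 5.43% ± 0.129 in shACSL4. The shares of Pdk1 and Pdk3 overlapped between groups. In CPM, Pdk3 was at 131, 138 and 136 CPM across shControl 1 to 3, against 150, 158 and 146 CPM across shACSL4 1 to 3, without overlap (log2 fold change 0.16 with SE 0.0533, edgeR adjusted p = 0.0379). Its call ended in 5 of the 6 fits that left out 1 library, with adjusted p up to 0.15. Pdk1, a hypoxia-induced kinase, was at 234, 244 and 198 CPM across shControl 1 to 3, against 253, 260 and 229 CPM across shACSL4 1 to 3 and missed the threshold (log2 fold change 0.14, 95% interval -0.04 to 0.31, edgeR adjusted p = 0.224). Pdk4, the kinase induced by fasting and fatty acids in muscle and liver, had 3, 8 and 10 counts across the shControl libraries, against 8, 4 and 2 across the shACSL4 libraries, so that no difference was detectable at this depth.

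Pdp1 and Pdp2 encode the catalytic subunits of the phosphatases that reverse the kinases. Pdp2 was at 31.1, 32.3 and 30.6 CPM across shControl 1 to 3, against 39.4, 36.9 and 37.8 CPM across shACSL4 1 to 3, with no overlap (log2 fold change 0.28 with SE 0.0657, edgeR adjusted p = 0.00684). Pdp1 was at 12, 12.8 and 11.2 CPM across shControl 1 to 3, against 10.7, 13 and 11.9 CPM across shACSL4 1 to 3 (log2 fold change -0.02, 95% interval -0.25 to 0.21, edgeR adjusted p = 0.917), and its lowest and highest values were both in shACSL4. Pdp2 made up 67.4% ± 0.858 of the summed FPKM of both phosphatases in shControl and 71.8% ± 2.58 in shACSL4. The opposing arms of this switch thus each had members that rose. On the log2 scale these were Pdk2 by 1.82 and Pdk3 by 0.16 among the kinases, and Pdp2 by 0.28 among the phosphatases. Pdk2 remained a minor part of the kinase transcripts, at 5.43% of their summed FPKM in shACSL4.

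**Figure D2:**
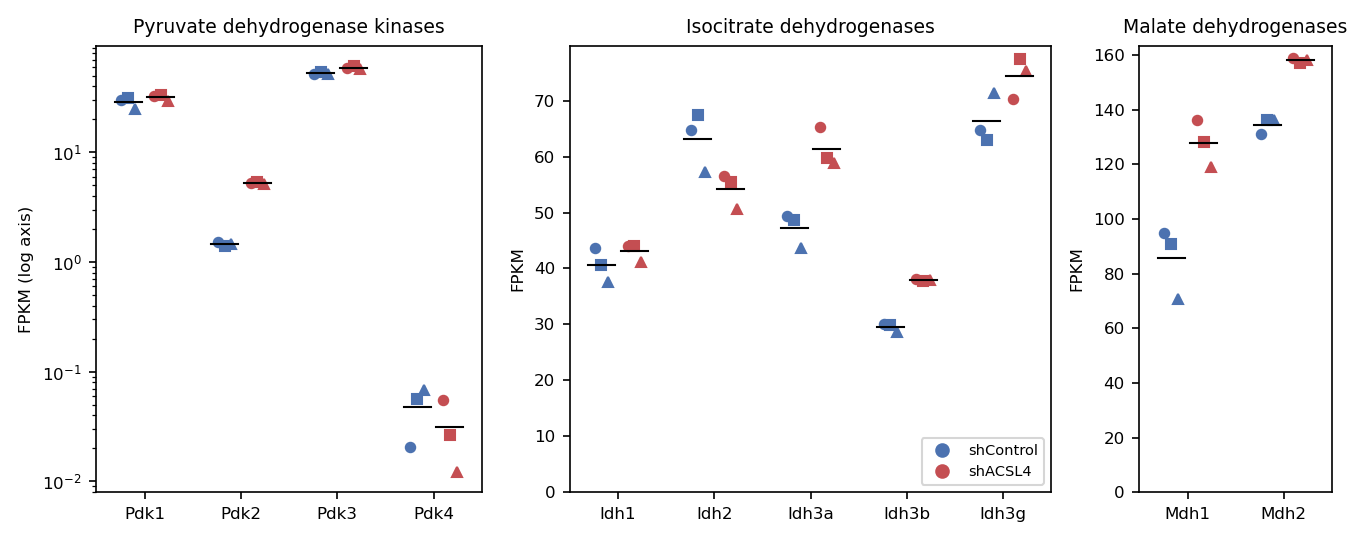
FPKM of the pyruvate dehydrogenase kinases (log axis), the isocitrate dehydrogenases and the malate dehydrogenases (linear axes) in each library, with a black bar at the mean of 3 libraries (blue, shControl; red, shACSL4). Pdk2 goes from 1.46 to 5.23 FPKM while Pdk3 and Pdk1 stay far above it, Idh2 goes down while Idh3a and Idh3b go up, and Mdh1 goes up more than Mdh2.

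On the way to 2-oxoglutarate, citrate synthase and 2 subunits of the NAD-dependent isocitrate dehydrogenase rose, and the NADP-dependent mitochondrial enzyme fell. Cs, which condenses acetyl-CoA with oxaloacetate, was at 451, 475 and 494 CPM across shControl 1 to 3, against 551, 566 and 559 CPM across shACSL4 1 to 3, with no overlap (log2 fold change 0.24 with SE 0.0531, edgeR adjusted p = 0.00484). Its highest control was shControl 3. Idh3a, the catalytic subunit, was at 249, 247 and 226 CPM across shControl 1 to 3, against 329, 303 and 297 CPM across shACSL4 1 to 3 (log2 fold change 0.36 with SE 0.06, edgeR adjusted p = 0.000656). Idh3b was at 102, 102 and 99.9 CPM across shControl 1 to 3, against 130, 129 and 130 CPM across shACSL4 1 to 3 (log2 fold change 0.35 with SE 0.0492, edgeR adjusted p = 0.000189), with an SD of 0.219 CPM among the shACSL4 libraries. Both were without overlap. Idh3g, the remaining subunit, was at 174, 170 and 196 CPM across shControl 1 to 3, against 189, 209 and 203 CPM across shACSL4 1 to 3 and missed the threshold (log2 fold change 0.15, 95% interval 0.01 to 0.30, edgeR adjusted p = 0.101). It was highest among controls in shControl 3, and without that library its log2 fold change was 0.22 (adjusted p = 0.00249).

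Idh2 (ENSMUSG00000030541, GRCm39 chromosome 7, 79744594 to 79765140), which makes NADPH in mitochondria, was at 166, 175 and 151 CPM across shControl 1 to 3, against 145, 144 and 131 CPM across shACSL4 1 to 3. All 3 shACSL4 libraries lay below the lowest control. The fitted fold was 0.853 (log2 fold change -0.23 with SE 0.0654, edgeR adjusted p = 0.0193). The gap between the groups was small, and 3 left-out libraries each ended the call, namely shControl 1 (adjusted p = 0.0657), shControl 2 (0.0893) and shACSL4 3 (0.104). Idh1, its cytosolic counterpart, was at 120, 113 and 106 CPM across shControl 1 to 3, against 121, 122 and 113 CPM across shACSL4 1 to 3 and overlapped between groups (log2 fold change 0.08, 95% interval -0.06 to 0.21, edgeR adjusted p = 0.38). Per length, Idh2 made up 41.7% ± 1.7 of the summed FPKM of Idh1, Idh2 and the mean Idh3 subunit in shControl and 34.9% ± 0.847 in shACSL4. The mean Idh3 subunit went from 31.6% ± 1.75 to 37.3% ± 1.03, with no overlap for either share. The lowest Idh2 share among the controls, 40.1% in shControl 3, lay above the highest in shACSL4, 35.7%.

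On the way to fumarate, Ogdh, the decarboxylating subunit of the 2-oxoglutarate dehydrogenase complex, had the largest rise among the enzymes of the cycle. Ogdh (ENSMUSG00000020456, GRCm39 chromosome 11, 6241633 to 6306642) was at 199, 205 and 239 CPM across shControl 1 to 3, against 327, 326 and 354 CPM across shACSL4 1 to 3. It was higher in shControl 3 than in the other controls, and the groups did not overlap (log2 fold change 0.65 with SE 0.0706, edgeR adjusted p = 2.69e-05). Dlst, the succinyltransferase core of the same complex, was at 238, 235 and 230 CPM across shControl 1 to 3, against 274, 268 and 268 CPM across shACSL4 1 to 3, a smaller rise with no overlap (log2 fold change 0.21 with SE 0.0492, edgeR adjusted p = 0.00764). The shared subunit Dld, above, was not called.

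Succinyl-CoA ligase pairs an alpha subunit, Suclg1, with a beta subunit that uses ADP (Sucla2) or GDP (Suclg2). Suclg1 was at 92.5, 92.9 and 92.5 CPM across shControl 1 to 3, against 115, 117 and 109 CPM across shACSL4 1 to 3 (log2 fold change 0.30 with SE 0.0521, edgeR adjusted p = 0.00106). Sucla2 was at 108, 105 and 107 CPM across shControl 1 to 3, against 117, 112 and 101 CPM across shACSL4 1 to 3 (log2 fold change 0.05, 95% interval -0.08 to 0.18, edgeR adjusted p = 0.588). Suclg2 was at 158, 161 and 149 CPM across shControl 1 to 3, against 173, 165 and 164 CPM across shACSL4 1 to 3 (log2 fold change 0.10, 95% interval -0.02 to 0.22, edgeR adjusted p = 0.181). Only the alpha subunit passed the test. The difference between subunits was not tested. Suclg2 held 55.8% ± 1.14 of the summed FPKM of the 2 beta subunits in shControl and 56.7% ± 1.41 in shACSL4, and the shares overlapped. With the longest annotated transcript as the length, Suclg2 held 49.2% and 50.2%, so which beta subunit is the more abundant depends on the length used.

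Succinate dehydrogenase is both an enzyme of the cycle and complex II of the respiratory chain. Sdha, the flavoprotein subunit that binds succinate, was at 347, 359 and 338 CPM across shControl 1 to 3, against 487, 466 and 475 CPM across shACSL4 1 to 3, with no overlap (log2 fold change 0.45 with SE 0.0514, edgeR adjusted p = 3.84e-05). Sdhb, the iron-sulphur subunit, was at 81.9, 83.9 and 66.7 CPM across shControl 1 to 3, against 88.7, 87.8 and 77.8 CPM across shACSL4 1 to 3 (log2 fold change 0.13, 95% interval -0.06 to 0.32, edgeR adjusted p = 0.295). The membrane anchors Sdhc and Sdhd carry the ubiquinone site. Sdhc was at 101, 106 and 83.7 CPM across shControl 1 to 3, against 117, 119 and 106 CPM across shACSL4 1 to 3, and the lowest shACSL4 library did not exceed the highest control (log2 fold change 0.23, 95% interval 0.05 to 0.42, edgeR adjusted p = 0.0534). Sdhc was past the threshold with DESeq2 (adjusted p = 0.0316), with DESeq2 size factors in edgeR (0.0478), under the stricter filter (0.0458) or none (0.013), and without shControl 2 (0.0255) or shACSL4 3 (0.043). Sdhd was at 191, 196 and 154 CPM across shControl 1 to 3, against 225, 220 and 200 CPM across shACSL4 1 to 3 (log2 fold change 0.25 with SE 0.0867, edgeR adjusted p = 0.0482). In Sdhb, Sdhc and Sdhd alike shControl 3 was well below the other controls, by 0.31 to 0.33 on the log2 scale, whereas for Sdha it was below them by 0.06. The call of Sdhd ended with library size alone as scaling (adjusted p = 0.0631) and without shControl 1 (0.0583), shACSL4 1 (0.152) or shACSL4 2 (0.132). Without shControl 3 the log2 fold change of Sdhd was 0.15 (adjusted p = 0.0317). Sdha made up 28.7% ± 2.18 of the summed FPKM of the 4 subunits in shControl and 31.8% ± 1.38 in shACSL4, and these shares overlapped.

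In the closing steps, Fh1, fumarase, was at 101 ± 11.4 and 105 ± 5.68 CPM and missed the threshold (log2 fold change 0.06, 95% interval -0.12 to 0.23, edgeR adjusted p = 0.639). Mdh1, the cytosolic malate dehydrogenase of the malate-aspartate shuttle, was at 251, 243 and 192 CPM across shControl 1 to 3, against 360, 342 and 315 CPM across shACSL4 1 to 3. Its lowest value was in shControl 3, and all 3 shACSL4 libraries were above every control (log2 fold change 0.57 with SE 0.0948, edgeR adjusted p = 0.0014). Without shControl 3 the log2 fold change was 0.46. Mdh2, the enzyme of the cycle itself, was at 462, 484 and 493 CPM across shControl 1 to 3, against 561, 561 and 559 CPM across shACSL4 1 to 3, with almost no spread among the shACSL4 libraries. This was a smaller rise from a higher level (log2 fold change 0.23 with SE 0.0506, edgeR adjusted p = 0.00521). The share of Mdh1 in the summed FPKM of both enzymes went from 38.8% ± 4.07 to 44.7% ± 1.59, with no overlap between groups. With the longest annotated transcript as the length, Mdh1 held 26.5% and 31.4%, so its size relative to Mdh2 depends on the length used.

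**Figure D3:**
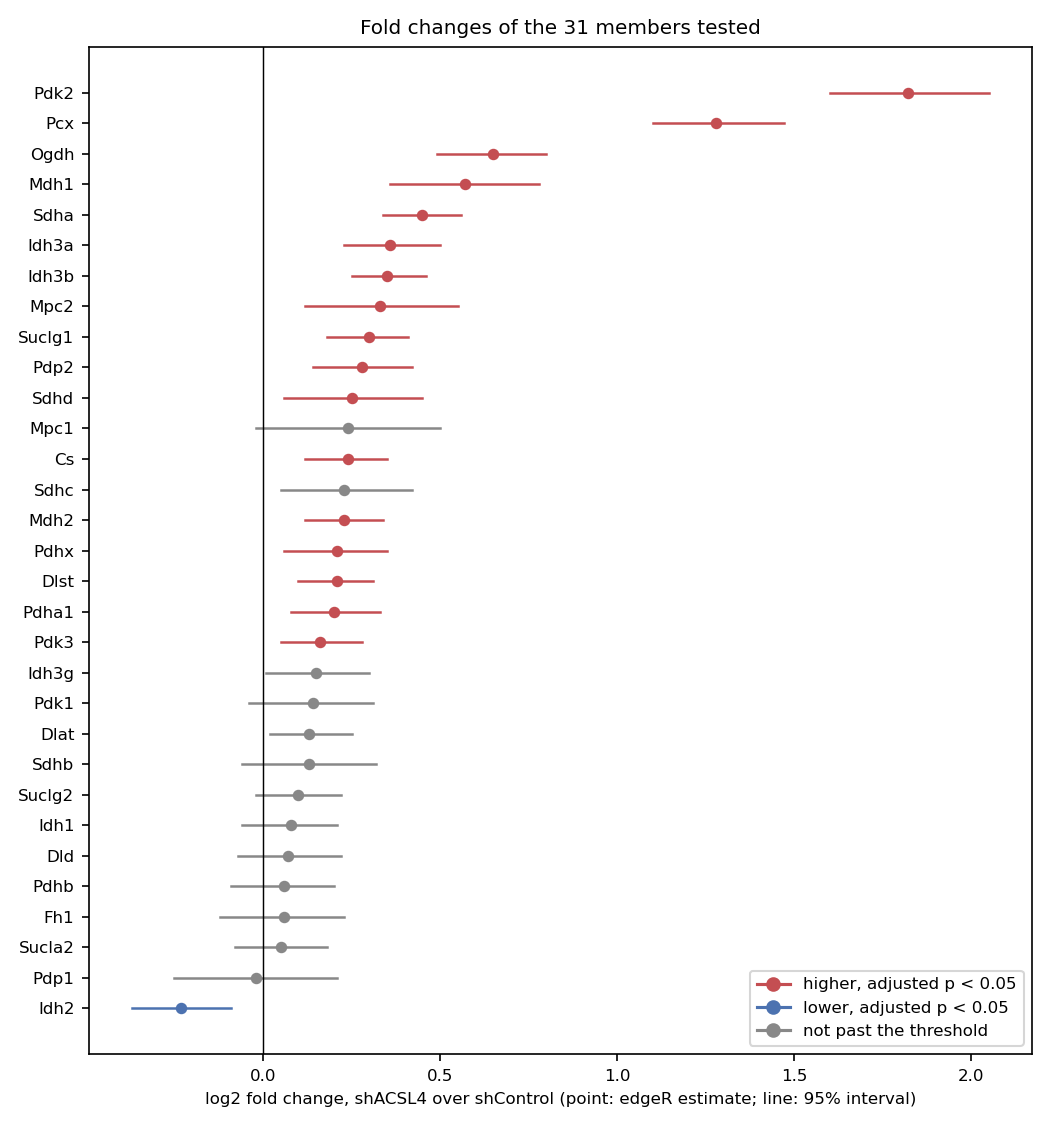
Log2 fold change of shACSL4 over shControl for the 31 tested members in order of size, with the 95% interval of the edgeR fit (red, higher; blue, lower; grey, not past an adjusted p of 0.05). Pdk2 at 1.82 and Pcx at 1.28 stand apart, and the other intervals lie between -0.37 and 0.80.

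By role, 2 of 3 genes of pyruvate entry, 2 of 5 subunits of the dehydrogenase complex and 3 of 5 tested kinases and phosphatases were higher. Of the 18 genes grouped as cycle enzymes, 10 were higher and 1, Idh2, was lower. These counts stand beside 15.4% of all tested genes higher and 13.6% lower. The 18 include the cytosolic Idh1 and Mdh1, of which Mdh1 was called higher, and do not cover every step of the cycle. Summed over these 18 genes, the level was 3593, 3663 and 3505 CPM across shControl 1 to 3, against 4421, 4363 and 4261 CPM across shACSL4 1 to 3. The highest control was below the lowest shACSL4 library. Per length, Sdhd (146 ± 20.3 FPKM in shControl), Mdh2 (134 ± 3.02), Mdh1 (85.6 ± 12.9), Sdha (84 ± 3.27) and Cs (81.5 ± 2.75) were the most abundant members, but Sdhd and Mdh2 did not differ beyond their spread, nor did Mdh1, Sdha and Cs. Pdk4, Pdk2, Pcx, Pdp1, Mpc1 and Mpc2 were the least abundant, all below 4 FPKM in shControl. The 2 members that moved most were thus among the 6 least abundant. The gene lengths implied by the authors' FPKM values were 1 to 2.97 times the longest annotated transcript, with the highest ratio for Dlst, so FPKM understates some members relative to others. The implied length was 3.56 kb for Mdh2 against 1.61 kb annotated, whereas for Sdhd both were 1.23 kb. The order of the most abundant members, and the ties among them, thus depend on the length used.

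**Figure D4:**
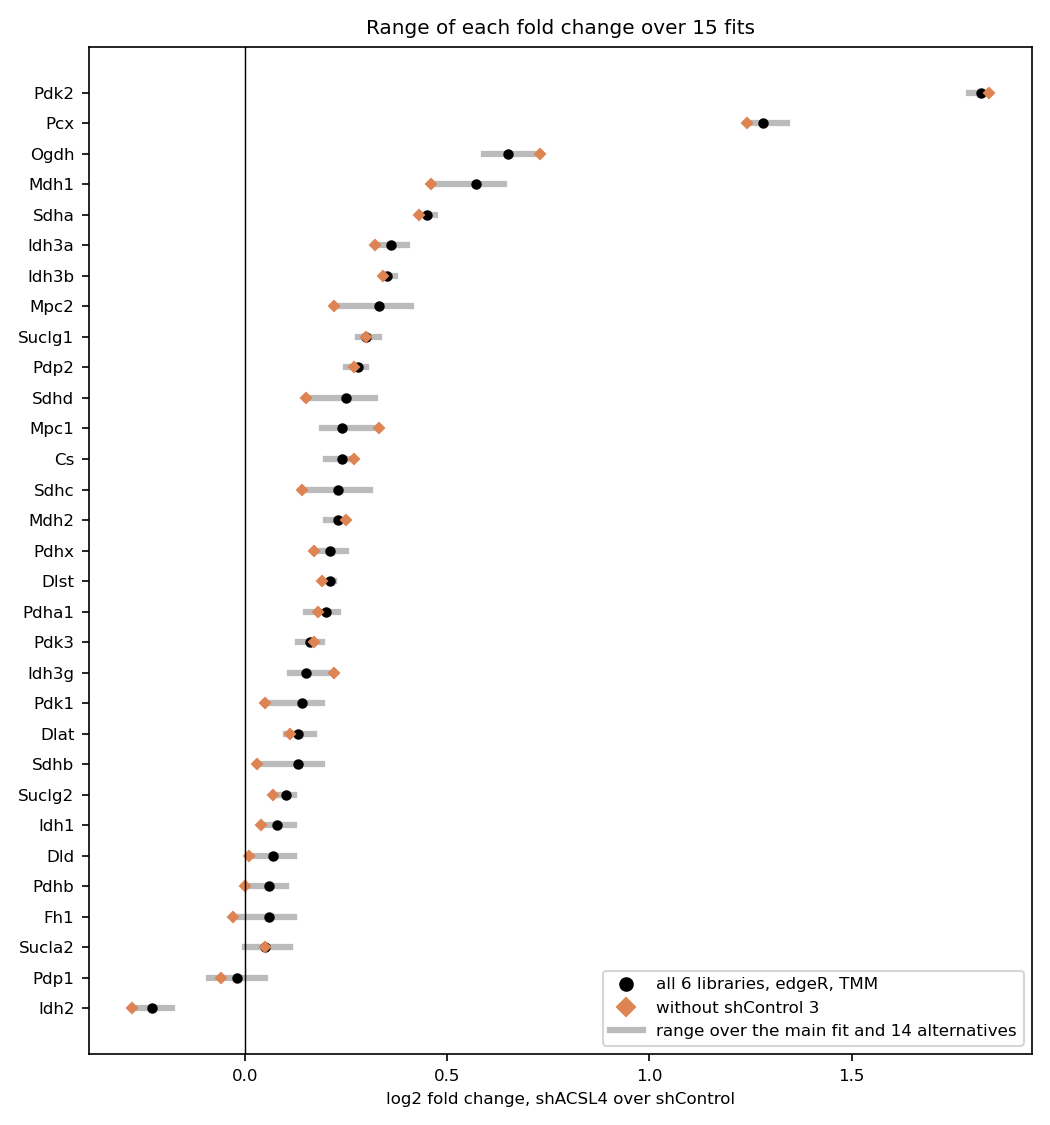
Log2 fold change of each tested member with all 6 libraries (black) and without shControl 3 (orange), over a grey bar for the range across the main fit and 14 alternatives. The bars of Pdk2, Pcx, Ogdh, Mdh1 and Sdha stay above 0.4, that of Idh2 stays below 0, and leaving out shControl 3 moves Mpc2, Mdh1, Sdhd, Sdhc, Pdk1, Sdhb and Fh1 to lower values and Ogdh, Mpc1 and Idh3g to higher ones.

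Without shControl 3, 17 members were again higher and 1 lower, beside 19.1% of all genes tested in that fit higher and 18.1% lower. The background was thus above the 15.4% and 13.6% of the fit of all libraries. Of these 17, 16 were shared with the fit of all libraries, with Idh3g gained and Pdhx lost (adjusted p = 0.0522), and the median log2 fold change of the members was 0.18.

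Genes that complete or assist the pathway were taken from a further pair of lists. Among 15 genes of lipoylation, assembly and the remaining enzymes, 3 of 14 tested were higher and 0 lower in edgeR's test, with a median log2 fold change of 0.09. The higher share, 21.4%, compares with 15.4% of all tested genes, and 13.6% of all tested genes were lower. DESeq2 and limma-voom also gave 3 and 0, and at an unadjusted p under 0.05 the number lower was 0 in edgeR. Sdhaf2, the factor that attaches flavin to Sdha, was at 67.8, 62.4 and 70.2 CPM across shControl 1 to 3, against 80.1, 79.7 and 79.3 CPM across shACSL4 1 to 3 (log2 fold change 0.25 with SE 0.0589, edgeR adjusted p = 0.00626). Fahd1, a mitochondrial oxaloacetate decarboxylase, was at 11.9, 11.2 and 9.54 CPM across shControl 1 to 3, against 14.2, 15.1 and 14.5 CPM across shACSL4 1 to 3 (log2 fold change 0.42 with SE 0.106, edgeR adjusted p = 0.01). Pdpr, the regulatory subunit of the phosphatase, was at 46.8 ± 2.61 and 52.1 ± 2.72 CPM (adjusted p = 0.105). The lipoylation genes Lias, Lipt1 and Lipt2 had adjusted p of 0.327 to 0.822.

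Among 21 genes of anaplerosis, cataplerosis and carriers, 5 of 19 tested were higher and 3 lower, with a median log2 fold change of 0.04. These shares were 26.3% higher and 15.8% lower, beside 15.4% and 13.6% of all tested genes, so the lower share was near the background. Me3 was too low to test, and Pck1 was not analysed here. Ldhb, the lactate dehydrogenase subunit that favours the direction from lactate to pyruvate, was at 3.68, 4.38 and 3.22 CPM across shControl 1 to 3, against 16, 16.2 and 16.3 CPM across shACSL4 1 to 3, with no overlap. The rise was 4.3-fold (log2 fold change 2.10 with SE 0.126, edgeR adjusted p = 1.98e-07). Ldha, the abundant subunit, was at 1888 ± 120 and 1859 ± 102 CPM (adjusted p = 0.823). Ldhb was a minor part in both groups, at 0.417% ± 0.0384 and 1.81% ± 0.108 of the summed FPKM of both. Carriers and an aminotransferase that work with Mdh1 in the malate-aspartate shuttle rose too. Slc25a12, the aspartate-glutamate carrier, was at 68.1, 74 and 70.2 CPM across shControl 1 to 3, against 105, 104 and 96.5 CPM across shACSL4 1 to 3 (log2 fold change 0.52 with SE 0.0584, edgeR adjusted p = 3.3e-05). Got2, the mitochondrial aspartate aminotransferase, was at 307, 326 and 339 CPM across shControl 1 to 3, against 428, 420 and 429 CPM across shACSL4 1 to 3 (log2 fold change 0.39 with SE 0.0538, edgeR adjusted p = 0.000166). Slc25a11, the 2-oxoglutarate carrier, rose 1.19-fold (adjusted p = 0.00564). All 3 were without overlap between groups. The other shuttle genes Got1 (log2 fold change -0.13, 95% interval -0.27 to -0.00, edgeR adjusted p = 0.118) and Slc25a13 (log2 fold change 0.16, 95% interval 0.03 to 0.30, edgeR adjusted p = 0.0685) were not called. The fifth higher gene was Slc25a10, a dicarboxylate carrier. Among the lower genes was the alanine aminotransferase Gpt2 (log2 fold change -0.26 with SE 0.0751, edgeR adjusted p = 0.0205). Both were named after their values had been seen. The number of lower genes on this list was 0 without shControl 1, shACSL4 2 or shACSL4 3, 1 without shControl 2 or shACSL4 1, and 4 without shControl 3.

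Regulators of mitochondrial enzyme genes were read beside them. Ppargc1a, a coactivator of genes for oxidative metabolism, was at 19.2, 18.7 and 27.1 CPM across shControl 1 to 3, against 84.8, 79 and 96.7 CPM across shACSL4 1 to 3 (log2 fold change 2.00 with SE 0.148, edgeR adjusted p = 3.84e-05). Esrra, an oestrogen-related receptor that works with it, was at 78.8, 76.5 and 59.7 CPM across shControl 1 to 3, against 92.2, 95.3 and 90.1 CPM across shACSL4 1 to 3 (log2 fold change 0.37 with SE 0.0912, edgeR adjusted p = 0.011), with its lowest value in shControl 3. Ppargc1b (log2 fold change 0.41, 95% interval 0.04 to 0.77, edgeR adjusted p = 0.0881) and Hif1a, the hypoxia factor that induces Pdk1 (log2 fold change 0.19, 95% interval 0.04 to 0.34, edgeR adjusted p = 0.0554), did not pass the test. Whether these regulators had a part in the levels of the members was not tested.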

How the data were processed

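RNA was measured by RNA-seq after depletion of ribosomal RNA and priming with random hexamers, per the labels' protocols. The submitters' processing notes name CASAVA, HISAT2 and DESeq2 with the GRCm39 build. The counting program, its handling of reads shared by near-identical genes, the annotation release and the strandedness are not given in the sources used here. The authors deposited raw counts and FPKM values per gene and library, and their own log2 fold changes and p-values. Library totals ran from 40911698 to 47127672 counts, and the limit for a count of 0 (3 counts) covers counting error only.

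Counts of all 6 libraries were fitted in R 4.3.3 with the robust quasi-likelihood test of edgeR 4.0.16 (two-sided, group as the only term, TMM scaling). Genes were kept by edgeR's filterByExpr with its count cut-off at 10 and total cut-off at 15. Benjamini-Hochberg adjustment ran over all 14289 retained genes, and adjusted p under 0.05 was called. SE is the fold change over the square root of F, and 95% intervals use the fit's degrees of freedom. Group values are mean ± SD, n = 3. Shares were computed from the authors' FPKM and not tested. The workflow was tested on simulated data whose planted changes were larger than those of most members, so smaller changes were not covered.

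The members, lists and naming rule were chosen with earlier results of these data known. All 32 members were named, and up to 4 genes with the smallest adjusted p from each further list. Some genes of the further lists that this rule or the counts include are not reported here. Alternatives were DESeq2 1.42.0, limma-voom (limma 3.58.1), other scalings and filters, protein-coding genes only, a replicate block, each library left out, counts without length for shares and, chosen after seeing the data, shares per length of the longest GENCODE vM21 transcript. Promoters are from RefSeq, GRCm38.p6, matched by symbol for 29 of 32 members.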

Additional observations from a re-analysis of the deposited data

How the results depend on the processing

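Over the 14 alternatives, 12 of the 18 calls among the members held throughout: Pcx, Pdk2, Pdp2, Cs, Idh3a, Idh3b, Ogdh, Dlst, Suclg1, Sdha, Mdh1 and Mdh2. The calls of Mpc2, Pdha1, Pdhx, Pdk3, Sdhd and Idh2 ended in 2 to 5 alternatives, each time with a library left out, and for Sdhd also with library size alone as scaling. The number of higher members was 16 to 21 in the fits of all libraries and 13 to 17 with 1 library left out, the number of lower members 1 in the former and 0 to 1 in the latter. With 1 library left out, the lower genes among all genes numbered 1252 to 2659, those of the anaplerosis list 0 to 4 and those of the lipoylation list 0 to 1. Whether libraries of the same number are paired was not tested. Deviations from the group means correlated at 0.115, 0.0634 and 0.201 for replicates 1, 2 and 3. Between libraries of different number the correlations were -0.204 to 0.13. shACSL4 1 correlated best with shControl 2 (0.13). With the replicate number as a block, 21 members were higher, with Dlat, Pdk1, Idh3g and Sdhc gained (Sdhc at adjusted p = 0.00165), and 2616 of all genes were higher and 2547 lower. Fold changes near 0 changed sign with a library left out, none of them past the threshold. Pdp1 went to 0.03 without shControl 2 and 0.05 without shACSL4 1 (range -0.09 to 0.05), Pdhb to -0.00 (-0.00 to 0.10) and Fh1 to -0.03 (-0.03 to 0.12) without shControl 3, and Ldha to 0.02 without shControl 2 or shACSL4 3. Lipt2 went to 0.11 without shControl 3 and 0.06 without shACSL4 2 (-0.19 to 0.11), and Gpt to -0.07 without shControl 3 and -0.12 without shACSL4 1 (-0.12 to 0.20). Without shACSL4 2, D2hgdh went to -0.03 (-0.03 to 0.22), Me1 to -0.01 (-0.01 to 0.09) and Slc25a1 to -0.02 (-0.02 to 0.07). The cause was not tested. Depth limits Pdk4, Ogdhl and Me3, which were too low to test.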
